A study of Mus musculus with 14 samples.

Results

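Heat shock chaperone genes encode the proteins that keep other proteins folded, and 10 of them were followed here through the aorta and the liver of mice. The members are Hspa1a, Hspa1b, Hspa8, Hsp90aa1, Hsph1, Dnajb1, Hspb1, Hspd1, Hspe1 and Hspa5. They were taken by gene name from the count tables of the 2 tissues, in which each member has 1 of 24732 features, and all 10 passed the low-count filter in both tissues. RNA was sequenced in 14 libraries, from 3 BT3xHuBL aortas, 3 HuBL aortas, 4 BT3xHuBL livers and 4 HuBL livers. All mice ate a normal laboratory diet and carry a time label of 52 weeks. The labels do not spell out the strains. As background from published work of this field, HuBL mice make human apolipoprotein B and lack the low-density lipoprotein receptor, and BT3 names a transgenic T cell receptor directed at apolipoprotein B. Read in that way, every group shares the HuBL background, and the genotype comparison sets mice with the added receptor against mice without it. The labels give no sex, no age at the start and no promoter for the transgenes. They do not state that each library is a separate animal, and the p-values therefore reflect only how these libraries scatter, which may be technical.

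Chaperones bind unfolded stretches of other proteins and release them in cycles driven by ATP and by cochaperones. In the cytosol, the constitutive Hsp70 protein Hspa8 and the stress-induced Hspa1a and Hspa1b take up clients with the help of Dnajb1, an Hsp40 cochaperone that delivers clients and stimulates ATP hydrolysis, and Hsph1, a nucleotide exchange factor. Hsp90aa1 is the stress-inducible cytosolic Hsp90, which matures kinases and steroid receptors, and Hspb1 is a small heat shock protein that holds unfolding clients and binds the actin cytoskeleton. Hspd1 and Hspe1 form the barrel and the lid of the mitochondrial chaperonin, and Hspa5 is the Hsp70 of the endoplasmic reticulum. Heat shock factors, above all Hsf1, switch on the cytosolic genes by binding repeats of a short motif in their promoters, whereas Hspa5 is a target of the unfolded protein response.

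The total per library was 41933263 to 65539765 counts in aorta and 13228123 to 17992459 counts in liver. Levels below are CPM, the deposited counts of a gene divided by the scaled size of its library, on 1 scale for all libraries. The tissue labels fitted their defining markers. Summed over 8 hepatocyte genes, the level was 31.7 to 55.2 CPM in BT3xHuBL aorta and 15.2 to 27.2 CPM in HuBL aorta, against 167000 to 216000 CPM in BT3xHuBL liver and 178000 to 215000 CPM in HuBL liver. Summed over 8 smooth muscle genes, it was 12100 to 16500 CPM in BT3xHuBL aorta and 13200 to 15700 CPM in HuBL aorta, against 184 to 241 CPM in BT3xHuBL liver and 195 to 245 CPM in HuBL liver. The added receptor could not be checked, because the labels do not name its segments. The constant region Trac had 63 to 141 counts in BT3xHuBL aorta, 45 to 75 in HuBL aorta, 7 to 17 in BT3xHuBL liver and 8 to 22 in HuBL liver. The 4 groups therefore rest on their labels alone as to genotype.

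The promoters of the members differ in the motifs they carry. Whether these motifs bear on the levels of the genes was not tested. RefSeq windows of 300 bases (GRCm38.p6, 250 before to 50 after the start) were available for 8 of 10 members and searched on both strands. Hspd1, Hsph1 and Dnajb1 had 2 windows each. Positions given for them refer to 1 start, and another start could hold other matches. The heat shock element was searched as 2 facing units, GAANNTTC or TTCNNGAA, and as 3 units, GAANNTTCNNGAA, which contains the shorter form. Of 32851 windows of the same length, 15.1% held the 2-unit form and 0.603% the 3-unit form. Among the members, 5 of 8 windows held the 2-unit form (Hspe1, Hspb1, Hspa1a, Hspa1b and Hsph1), and 2 of 8 held the 3-unit form (Hspe1 and Hsph1). The endoplasmic reticulum stress element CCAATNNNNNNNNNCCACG was in 0.119% of all windows and in 1 of 8 members, Hspa5. Each line gives the 150 bases just before the RefSeq start, 5′ to 3′ on the gene's strand, with 2-unit heat shock elements in capitals, or in Hspa5 the endoplasmic reticulum stress element. For Hspe1, Hsph1 and Hspa5 this start lies inside the GENCODE M21 gene bounds given below. Part of their printed stretches therefore lies inside those bounds, as do the elements marked in Hsph1 and Hspa5.
Hspe1, chr1:55087998-55088147, plus strand: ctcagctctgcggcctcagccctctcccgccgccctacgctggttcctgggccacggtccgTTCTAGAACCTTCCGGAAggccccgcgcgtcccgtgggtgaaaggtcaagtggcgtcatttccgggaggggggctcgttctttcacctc
Hspb1, chr5:135887769-135887918, plus strand: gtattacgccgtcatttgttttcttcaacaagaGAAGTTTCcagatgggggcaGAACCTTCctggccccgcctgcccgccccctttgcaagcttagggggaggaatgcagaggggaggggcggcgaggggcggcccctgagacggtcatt
Hspa1a, chr17:34972157-34972306, minus strand: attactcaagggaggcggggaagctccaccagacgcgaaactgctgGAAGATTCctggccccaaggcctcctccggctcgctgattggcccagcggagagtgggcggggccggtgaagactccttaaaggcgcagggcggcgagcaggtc
Hspa1b, chr17:34959239-34959388, minus strand: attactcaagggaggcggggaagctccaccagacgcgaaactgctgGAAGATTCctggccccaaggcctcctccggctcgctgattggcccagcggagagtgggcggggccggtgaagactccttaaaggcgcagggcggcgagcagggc
Hsph1, chr5:149636337-149636486, minus strand: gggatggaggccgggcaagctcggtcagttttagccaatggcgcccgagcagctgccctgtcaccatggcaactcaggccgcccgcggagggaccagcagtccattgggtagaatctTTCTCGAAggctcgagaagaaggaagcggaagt
Hspa5, chr2:34771940-34772089, plus strand: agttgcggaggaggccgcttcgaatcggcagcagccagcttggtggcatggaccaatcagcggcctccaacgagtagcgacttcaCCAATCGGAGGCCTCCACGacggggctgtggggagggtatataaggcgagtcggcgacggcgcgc

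In Hspe1, 3 overlapping matches of the 2-unit form run together as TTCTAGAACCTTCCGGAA, which starts 89 bases before the RefSeq start of the gene. The match of the 3-unit form in Hsph1, TTCTGGAAAGTTC, begins 36 bases after the start and so lies outside the stretch printed. Hspa1a and Hspa1b have nearly the same promoter. Their windows were identical at 296 of 300 bases, and over the 150 bases printed they differed at 1 position, T149G (the Hspa1a base, the position counted from the 5′ end of the printed stretch, and the Hspa1b base). Hspd1 (minus strand) and Hspe1 (plus strand) overlap at their 5′ ends on chromosome 1, where the RefSeq start of Hspd1 lies 95 bases downstream of that of Hspe1. The Hspd1 and Dnajb1 windows held none of the heat shock forms searched, and no window is printed for Hspa8 and Hsp90aa1. A match is a description of these letters and not evidence of binding.

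The largest differences among the groups lay between the tissues. Relative to the liver, the cytosolic genes Hspa1a, Hspb1, Hsp90aa1 and Hspa8 were higher in the aorta in both genotypes, by more than 3-fold each in every fitted estimate. Hspa5 and Hspd1 were lower in the aorta, and Hsph1 and Dnajb1 did not pass the test. Of the 10 members, edgeR called 6 higher and 2 lower in BT3xHuBL aorta, where 80.8% of 11951 features tested were called (40.9% higher and 39.9% lower). In HuBL aorta it called 5 higher and 2 lower, where 81.0% were called (41.8% higher and 39.1% lower). The members' share of calls was therefore close to that of all features. Lack of overlap between tissues, given for single members below, was also common. Aorta and liver libraries did not overlap for 79.0% of all features in BT3xHuBL and 80.1% in HuBL. The members' median log2 fold change was 1.60 in BT3xHuBL and 0.99 in HuBL, beside medians of 0.00 and 0.04 over all features. These are bulk tissues, in which fewer cells of a type and less RNA per cell cannot be told apart, and the libraries' run and depth cannot be told apart from the tissue either. The size of each difference depends on the scaling between tissues: on plain library totals the median of all features moved up by 0.60 in BT3xHuBL and by 0.63 in HuBL, and every value below moves up with it.

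**Figure D1:**
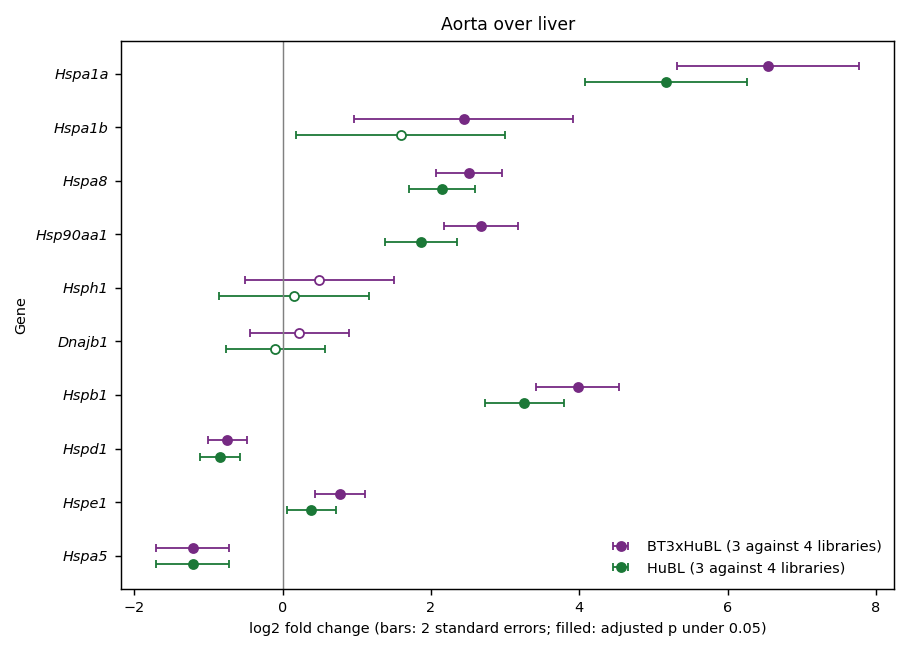
Log2 fold change of aorta over liver for each of the 10 genes, in BT3xHuBL (purple, above) and HuBL (green, below). Bars are 2 standard errors derived from the edgeR F statistic, and filled points mark adjusted p under 0.05. Hspa1a lies farthest to the right at 6.55 and 5.17, and Hspd1 and Hspa5 lie left of 0 in both genotypes.

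Hspa1a, one of the 2 stress-induced Hsp70 genes (chr17:34969190-34972156, minus strand), had 65.3, 33.9 and 99.0 CPM in BT3xHuBL aorta and 73.3, 43.5 and 71.9 CPM in HuBL aorta. In the liver it had 0.523, 0.285, 1.87 and 0.174 CPM in BT3xHuBL and 1.38, 1.23, 4.23 and 0.49 CPM in HuBL. The tissues did not overlap, and the liver values rest on 2 to 20 counts per BT3xHuBL library and 6 to 39 counts per HuBL library. The log2 fold change of aorta over liver was 6.55 (SE 0.61) in BT3xHuBL and 5.17 (SE 0.54) in HuBL, with edgeR adjusted p of 2.85e-07 and 9.39e-07.

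Hspa1b, its neighbour and near copy (chr17:34956436-34959238, minus strand), had 62.8, 38.5 and 120 CPM in BT3xHuBL aorta and 90.7, 51.9 and 97.6 CPM in HuBL aorta. In the liver it had 7.5, 8.07, 33.3 and 5.92 CPM in BT3xHuBL and 16.7, 18.3, 65.6 and 7.11 CPM in HuBL. The third HuBL liver reached into the range of HuBL aorta, whereas the BT3xHuBL tissues stayed apart. The log2 fold change was 2.44 (SE 0.74, edgeR adjusted p = 0.00852) in BT3xHuBL. In HuBL it was 1.59 (SE 0.71), which missed the threshold at an adjusted p of 0.0542 and passed it without the third HuBL liver (log2 fold change 2.52, adjusted p = 0.00383).

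Hspa8, the constitutive Hsp70 of the cytosol (chr9:40800984-40810087, plus strand), had 1100, 958 and 1320 CPM in BT3xHuBL aorta and 1170, 1030 and 975 CPM in HuBL aorta. In the liver it had 169, 181, 278 and 159 CPM in BT3xHuBL and 245, 235, 318 and 159 CPM in HuBL. Every aorta library was above every liver library, with a log2 fold change of 2.51 (SE 0.22) in BT3xHuBL and 2.15 (SE 0.22) in HuBL. Hsp90aa1, the inducible Hsp90 (chr12:110690605-110702728, minus strand), had 368, 301 and 428 CPM in BT3xHuBL aorta and 367, 331 and 326 CPM in HuBL aorta. Its liver values were 51.5, 39.8, 92.0 and 46.7 CPM in BT3xHuBL and 113, 85.8, 106 and 68.3 CPM in HuBL. The tissues were again apart in both genotypes, at a log2 fold change of 2.67 (SE 0.25) in BT3xHuBL and 1.87 (SE 0.24) in HuBL.

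Hspb1, the small heat shock protein tied to actin (chr5:135887919-135889563, plus strand), had 126, 87.8 and 191 CPM in BT3xHuBL aorta and 148, 137 and 130 CPM in HuBL aorta. Its liver values were 8.2, 5.51, 11.9 and 8.61 CPM in BT3xHuBL and 19.7, 12.5, 15 and 10.5 CPM in HuBL. No liver library came near an aorta library. The log2 fold change was 3.98 (SE 0.28, edgeR adjusted p = 5.71e-09) in BT3xHuBL and 3.26 (SE 0.27, adjusted p = 3.35e-08) in HuBL.

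The 2 partners of Hsp70 showed no difference between tissues that passed the test. Hsph1, the nucleotide exchange factor (chr5:149614287-149636376, minus strand), had 104, 71.5 and 207 CPM in BT3xHuBL aorta and 139, 113 and 110 CPM in HuBL aorta. Its liver values were 63.3, 69.8, 158 and 69.9 CPM in BT3xHuBL and 86.5, 93.7, 213 and 42.3 CPM in HuBL. The tissues overlapped in both genotypes, and the log2 fold change was 0.50 (2 SE bounds -0.51 to 1.5) in BT3xHuBL and 0.15 (-0.86 to 1.16) in HuBL. Dnajb1, the Hsp40 cochaperone (chr8:83608193-83612653, plus strand), had 37.6, 31.0 and 65.2 CPM in BT3xHuBL aorta and 46.5, 40.0 and 37.8 CPM in HuBL aorta. Its liver values were 28.9, 38.6, 52.2 and 32.9 CPM in BT3xHuBL and 42.3, 45.9, 69.1 and 21.5 CPM in HuBL. The tissues overlapped here too, with a log2 fold change of 0.23 (-0.44 to 0.89) in BT3xHuBL. In HuBL it was -0.10 (-0.77 to 0.57), a sign that turned on library totals, under limma-voom and with the stricter filter.

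The mitochondrial pair did not move together. Hspd1, the barrel subunit (chr1:55077835-55088243, minus strand), had 165, 151 and 214 CPM in BT3xHuBL aorta and 194, 186 and 169 CPM in HuBL aorta. Its liver values were 279, 280, 352 and 275 CPM in BT3xHuBL and 304, 352, 366 and 292 CPM in HuBL. Every aorta library was below every liver library, at a log2 fold change of -0.74 (SE 0.13) in BT3xHuBL and -0.84 (SE 0.13) in HuBL. On library totals these values were -0.15 and -0.22 and passed the test in neither genotype. Hspe1, the lid (chr1:55088132-55091307, plus strand), had 52.5, 52.2 and 79.6 CPM in BT3xHuBL aorta and 67.1, 76.7 and 55.5 CPM in HuBL aorta. Its liver values were 32.4, 32.8, 47.4 and 31.8 CPM in BT3xHuBL and 50.6, 53.9, 48.8 and 49.6 CPM in HuBL. Aorta was above liver in both genotypes, by a log2 fold change of 0.77 (SE 0.17, edgeR adjusted p = 0.000639) in BT3xHuBL and 0.39 (SE 0.17, adjusted p = 0.0435) in HuBL. The HuBL call was lost without the first or second HuBL aorta, any 1 HuBL liver or the second BT3xHuBL liver, at adjusted p of 0.0542 to 0.181.

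Within a library, the ratio of Hspe1 to Hspd1 counts does not depend on the scaling. It was chosen after the values were seen. Per 100 Hspd1 counts there were 31.7, 34.5 and 37.1 Hspe1 counts in BT3xHuBL aorta and 34.5, 41.2 and 32.8 in HuBL aorta. In the liver there were 11.6, 11.7, 13.5 and 11.6 in BT3xHuBL and 16.6, 15.3, 13.3 and 17.0 in HuBL. The tissues did not overlap in either genotype, and between genotypes the liver ranges met at the third library of each.

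Hspa5, the Hsp70 of the endoplasmic reticulum (chr2:34771970-34777547, plus strand), had 850, 646 and 1040 CPM in BT3xHuBL aorta and 917, 828 and 755 CPM in HuBL aorta. In the liver it had 2020, 1950, 2230 and 1650 CPM in BT3xHuBL and 1630, 1590, 3080 and 1400 CPM in HuBL. Every aorta library was below every liver library, with a log2 fold change of -1.21 (SE 0.25) in each genotype, and the call held on library totals.

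**Figure D2:**
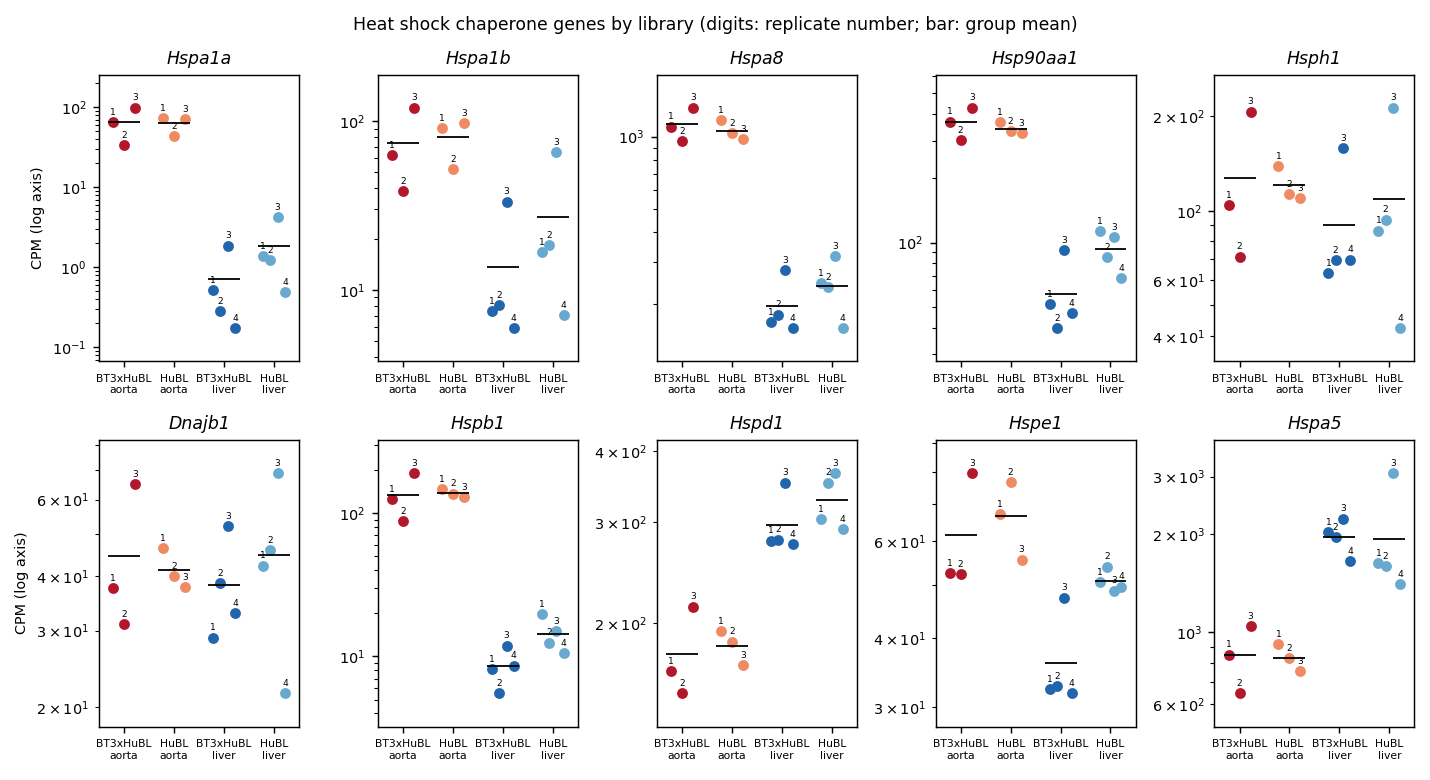
Level of each heat shock chaperone gene in every library, as CPM on a log axis, in BT3xHuBL aorta, HuBL aorta, BT3xHuBL liver and HuBL liver from left to right, with replicate numbers as digits and a bar at the group mean. Hspa1a lies between 33.9 and 99.0 CPM in the aorta libraries and between 0.174 and 4.23 CPM in the liver libraries, Hspa5 and Hspd1 are higher in the liver, and the third BT3xHuBL library is the highest of its group for every gene in both tissues.

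The balance of the 2 inducible Hsp70 genes differed between the tissues. Of the counts of Hspa1a and Hspa1b together, Hspa1a made up 51.0%, 46.8% and 45.1% in BT3xHuBL aorta and 44.7%, 45.6% and 42.4% in HuBL aorta. In the liver it made up 6.52%, 3.41%, 5.32% and 2.86% in BT3xHuBL and 7.61%, 6.32%, 6.06% and 6.45% in HuBL. The aorta and liver libraries lay far apart. The exact 95% binomial intervals, which cover counting error only, reached down to 41.5% in the aorta and up to 13.7% in the liver. The mean share was 47.6% ± 3.04 in BT3xHuBL aorta (SD, n = 3) and 4.53% ± 1.7 in BT3xHuBL liver (SD, n = 4). In HuBL it was 44.2% ± 1.65 in aorta (SD, n = 3) and 6.61% ± 0.686 in liver (SD, n = 4). An exact two-sided permutation test of aorta against liver gave p = 0.0571 in each genotype, the smallest p that 3 against 4 libraries allow, and 0.114 after adjustment over 4 tests. Between genotypes the exact p was 0.2 in aorta, where 0.1 is the smallest possible, and 0.114 in liver (adjusted 0.152). The 2 genes are close copies whose annotated transcripts were 84.3% identical over the whole length but 50.1% over the last 300 bases, near which this 3′ end assay reads. Whether any reads were assigned to the wrong copy was not tested.

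**Figure D3:**
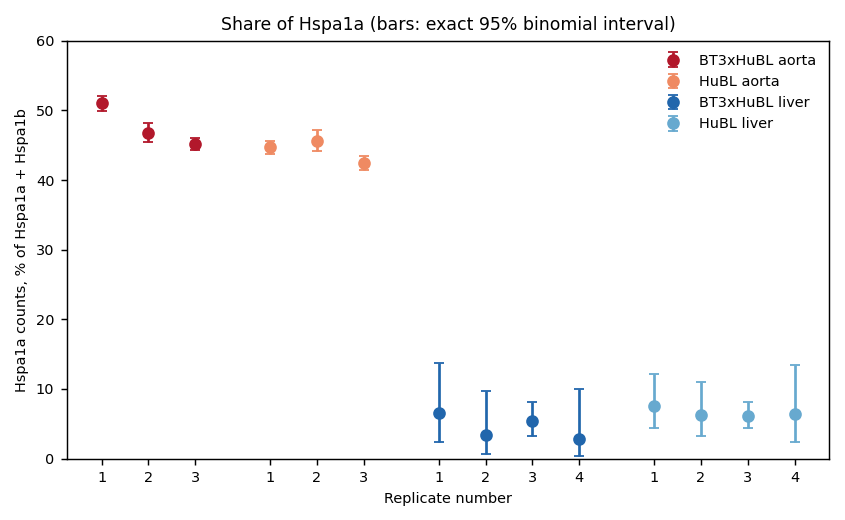
Share of Hspa1a in the summed counts of Hspa1a and Hspa1b in each library, in percent, with exact 95% binomial intervals, ordered as BT3xHuBL aorta, HuBL aorta, BT3xHuBL liver and HuBL liver. The 6 aorta libraries lie between 42.4% and 51.0%, and the 8 liver libraries between 2.86% and 7.61%.

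Genotype made no difference to these genes in the aorta that the test could call. In BT3xHuBL against HuBL aorta, edgeR called 0 of the 10 members, where 0.026% of 15400 features were called. None reached an unadjusted p under 0.05 either, as 4.08% of features did, and DESeq2 and limma-voom also called 0. The libraries of the genotypes overlapped for all 10 members, whereas 9.31% of features did not overlap. By sign, 6 members were above 0 and 4 below, and the median was 0.04 on the log2 scale (all features 0.00). The narrowest estimates were those of Hsp90aa1 at 0.09 (2 SE bounds -0.15 to 0.34), Hspd1 at -0.06 (-0.31 to 0.19) and Hspa8 at 0.08 (-0.18 to 0.34). Hspa1a (0.06, bounds -0.88 to 1.01) and Hspa1b (-0.12, bounds -1.18 to 0.93) were the least certain, so a 1.5-fold difference in either direction lay within their bounds. The direction rests on single libraries. Without the third BT3xHuBL aorta all 10 members were below 0 (median -0.32), and without the second 1 was below 0 (median 0.19). Clock genes differed in their estimates between the same libraries. Of 18 listed, 9 were higher in BT3xHuBL aorta and 4 lower at an unadjusted p under 0.05. EdgeR called the clock gene Dbp higher, at 1.44 (SE 0.13, adjusted p = 0.0089), and its feature overlaps another gene. It was not called by limma-voom (adjusted p = 0.0565) or with both tissues in 1 fit. Striated muscle genes differed in their estimates too. Of 9 tested, 7 were above 0 and 2 below, with 3 higher at an unadjusted p under 0.05. EdgeR called Tcap of this list higher, at 1.22 (SE 0.13, adjusted p = 0.0089), and limma-voom did not (adjusted p = 0.0801). The list's summed level over 11 genes was 59.8 to 77.5 CPM in BT3xHuBL aorta and 36.6 to 40.7 CPM in HuBL aorta. The part of the clock or striated muscle genes in the members' estimates was not tested.

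In the liver, 9 of 10 members were lower in BT3xHuBL than in HuBL by their estimates, and none was called. Hspa5 was the exception. EdgeR called 0 members, where 0.0% of 12453 features were called and 11.1% had an unadjusted p under 0.05 (5.38% lower). Of the members, 3 had an unadjusted p under 0.05, namely Hspe1, Hspb1 and Hsp90aa1, and DESeq2 and limma-voom called 0 members. DESeq2 called 133 features and limma-voom 0. The members' median log2 fold change was -0.38, beside 0.01 over all features, of which 51.8% were above 0. It ranged from -0.66 without the third BT3xHuBL liver to -0.09 without the third HuBL liver, which left 10 and 7 members below 0. Markers of other cell types also differed in their estimates in liver, with 0 called by edgeR. Of 6 smooth muscle genes tested, 4 were below 0 (median -0.49, 2 lower at an unadjusted p under 0.05), and of 5 plasma cell and immunoglobulin genes all 5 were (median -0.53, 2 lower). Of 8 hepatocyte genes, 5 were below 0 (median -0.12, 3 lower). Other cell types went the other way or were split. Of 8 endothelial genes, 5 were above 0 and 3 below (median 0.08, 2 higher). Of 5 white adipocyte genes, 4 were above 0 and 1 below (median 0.19). Of 11 macrophage genes, 5 were above and 6 below (median -0.06, 1 higher). Of 3 brown adipocyte genes, 1 was above and 2 below (median -0.42). Summed levels of smooth muscle genes overlapped, at 184 to 241 CPM in BT3xHuBL and 195 to 245 CPM in HuBL. Those of plasma cell genes overlapped too, at 214 to 322 CPM in BT3xHuBL and 252 to 309 CPM in HuBL. The plasma cell list as tested and summed leaves out its heavy chain constant genes, which were not matched by name. The part of any of these cell types in the members' estimates was not tested.

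Hspe1, the chaperonin lid, averaged 36.1 ± 7.55 CPM in BT3xHuBL liver and 50.7 ± 2.24 CPM in HuBL liver (SD, n = 4 each). It was the only member whose libraries did not overlap, as 3.65% of features did in the lower direction. Its log2 fold change was -0.49 (SE 0.13, edgeR unadjusted p = 0.00281, adjusted p = 0.281), lower in 4 of 4 libraries. Hspb1 averaged 8.55 ± 2.62 CPM in BT3xHuBL liver and 14.4 ± 3.93 CPM in HuBL liver (SD, n = 4 each), at a log2 fold change of -0.75 (SE 0.24, edgeR adjusted p = 0.334). Hsp90aa1 averaged 57.5 ± 23.5 CPM in BT3xHuBL liver and 93.4 ± 20.4 CPM in HuBL liver (SD, n = 4 each), at -0.70 (SE 0.28, edgeR adjusted p = 0.418). For both, the third BT3xHuBL liver reached into the HuBL range. The inducible Hsp70 genes had the largest estimates and the widest spread, -1.32 (2 SE bounds -2.91 to 0.26) for Hspa1a and -0.97 (-2.70 to 0.77) for Hspa1b. Those of Hspa8 (-0.28), Hsph1 (-0.27), Dnajb1 (-0.22) and Hspd1 (-0.14) were smaller, and Hspa5 was at 0.03 (-0.44 to 0.51). Hspd1, which overlaps Hspe1 at its 5′ end, had bounds of -0.37 to 0.08.

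The third liver library of each genotype was the highest or near it for most members, so the liver comparison was fitted again without both, a choice made after the data were seen. Hspa1a then failed the low-count filter, and 8 of the 9 members left were below 0 (median -0.32). Hspe1 was at -0.67 (SE 0.10, edgeR adjusted p = 0.18), Hsp90aa1 at -0.95 (SE 0.18, adjusted p = 0.202), Hspb1 at -0.93 (SE 0.27, adjusted p = 0.297) and Hspa1b at -0.96 (SE 0.34, adjusted p = 0.363). No member was called, and 1 of 12522 features was.

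The genotype effect in aorta minus that in liver was above 0 for 9 of 10 members (median 0.38, all features 0.00). EdgeR called 0 members, where 0.0% of 11951 features were called and 1029 features (8.61%) had an unadjusted p under 0.05. DESeq2 and limma-voom called 0 members as well, with 42 and 0 features called. Hsp90aa1 had the smallest p of the members, at 0.80 (SE 0.34, edgeR unadjusted p = 0.0362, adjusted p = 0.542). A difference between the tissues in the genotype effect was thus not shown for any member.

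**Figure D4:**
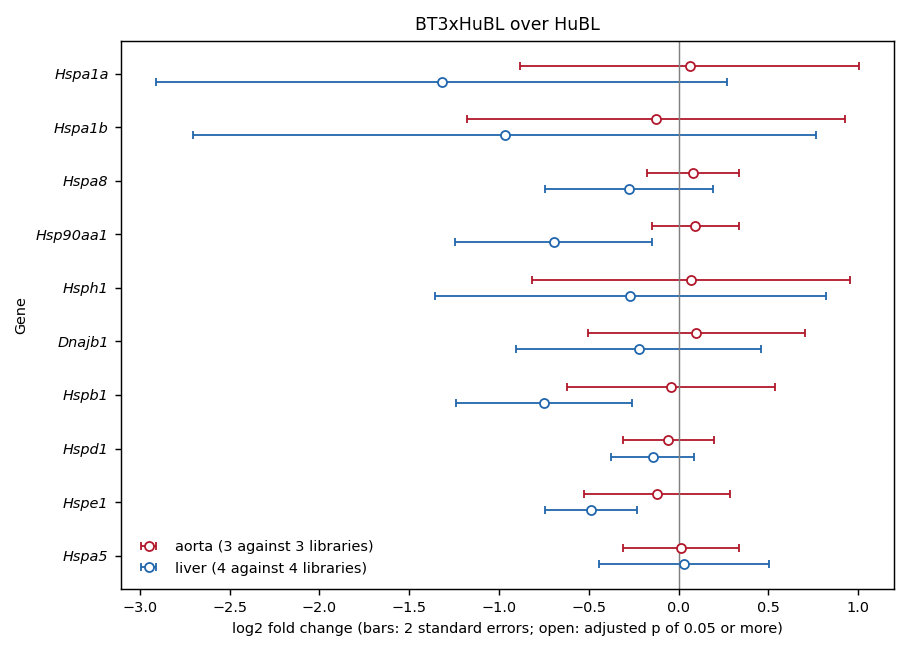
Log2 fold change of BT3xHuBL over HuBL for each gene, in aorta (red, above) and liver (blue, below). Bars are 2 standard errors derived from the edgeR F statistic. Open points mark adjusted p of 0.05 or more, and all are open. In the liver 9 of 10 points lie left of 0, with the longest bars for Hspa1a and Hspa1b, and in the aorta all bars cross 0.

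Between libraries of the same group, the members tended to be high or low together. The third BT3xHuBL aorta and the third BT3xHuBL liver were the highest of their groups for 10 of 10 members, and the third HuBL liver for 7 of 10. Whether the third BT3xHuBL aorta and liver share an animal is not stated. Over the mean of the other libraries of its group, the third BT3xHuBL aorta was 1.28- to 2.38-fold higher, the third BT3xHuBL liver 1.19- to 5.72-fold higher, and the third HuBL liver 0.95- to 4.67-fold. The third HuBL aorta stood out for 1 member, Hspa1b. At the low end, the second BT3xHuBL aorta and the fourth HuBL liver were below their group's mean log2 level for 10 of 10 members. Summed over the 10 members, the level ran from 2370 to 3770 CPM in BT3xHuBL aorta and from 2730 to 3210 CPM in HuBL aorta, and from 2280 to 3260 CPM in BT3xHuBL liver and 2060 to 4290 CPM in HuBL liver.

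The members did not swing by the same amount. In the liver, the SD of log2 CPM within groups was 1.22 for Hspa1b and 1.11 for Hspa1a, larger than for 99.6% and 99.4% of the features tested. Hsph1 followed at 0.80 (97.9%) and Dnajb1 at 0.56 (93.3%). The mitochondrial Hspe1 at 0.20 (49.7%) and Hspd1 at 0.17 (38.2%) were near the median of all features, 0.20. In the aorta, the SD was 0.68 for Hspa1b, 0.62 for Hspa1a and 0.57 for Hsph1, larger than for 88.6% to 91.5% of features, and 0.19 for Hspa8 and Hsp90aa1, beside a median of 0.16. Hspe1 was at 0.30 in aorta (75.6%) and Hspa5 at 0.265 (72.0%), both above Hspa8 and Hsp90aa1. Hspa1b, Hspa1a and Hsph1 thus varied most of the members in both tissues, and the liver values of Hspa1a rest on few counts.

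**Figure D5:**
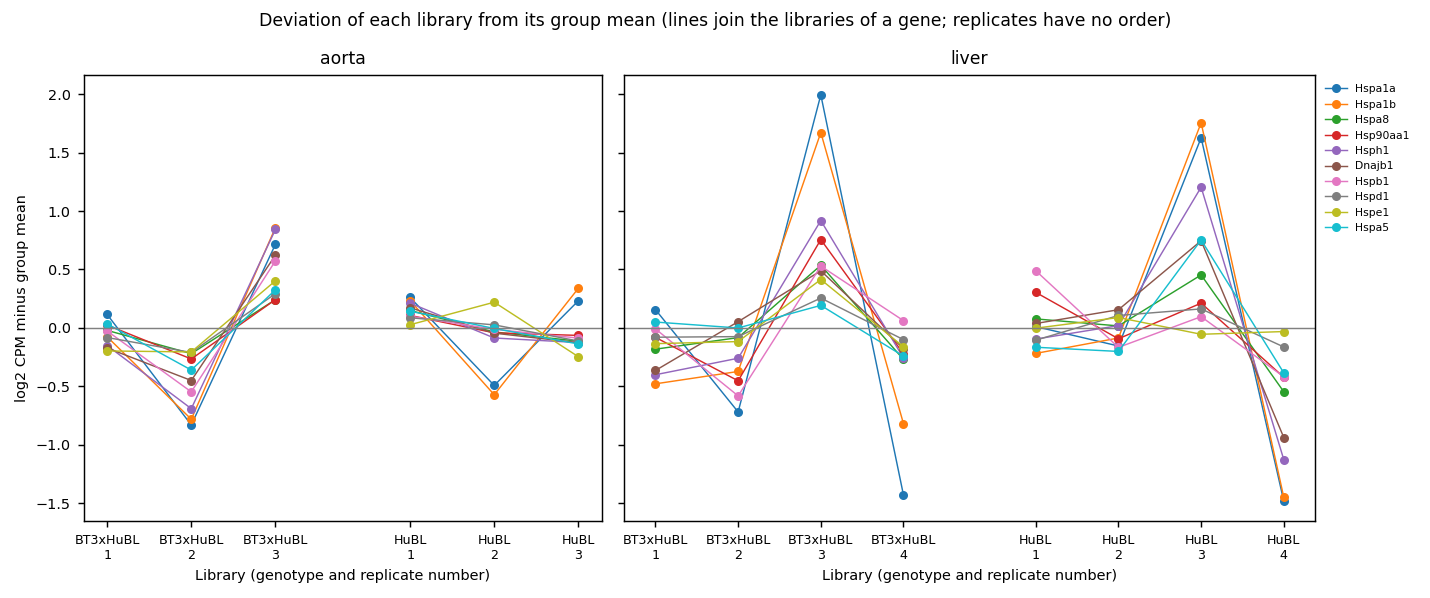
Log2 CPM of each gene minus its group mean, for the 6 aorta libraries (left panel) and the 8 liver libraries (right panel), coloured by gene, with lines that only help to follow a gene since replicates have no order. All 10 genes lie above 0 in the third BT3xHuBL aorta and the third BT3xHuBL liver, and below 0 in the second BT3xHuBL aorta and the fourth HuBL liver. The plotted levels carry no prior count, unlike the SDs and correlations in the text.

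As a description of this shared variation, log2 CPM centred within each group was correlated between members. All 45 pairs had a positive r in both tissues, with a median Pearson r of 0.91 and Spearman rho of 0.83 over 6 aorta libraries, and of 0.78 and 0.69 over 8 liver libraries. A set of 6 cytosolic members (Hspa1a, Hspa1b, Hsph1, Dnajb1, Hsp90aa1 and Hspa8) is called the heat-inducible members below. The name is a label only, since the set holds the constitutive Hspa8 and leaves out Hspb1 and Hspe1. Among these 6 the median r was 0.88 in aorta and 0.93 in liver. The relation leans on a few libraries. Without the second and the third BT3xHuBL aorta, 39 of the 45 pairs were positive (median r 0.685, lowest -0.776, 4 libraries), and without the third liver of each genotype 42 were (median 0.539, lowest -0.305, 6 libraries). Without the second and the third BT3xHuBL aorta, the median r of those 6 members was 0.34 over 4 libraries, and without the third liver of each genotype it was 0.84 over 6 libraries. All libraries of a tissue share its scaling, and genes are not independent replicates.

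The mean of the 6 heat-inducible members in each library, centred in the same way, was then set against every other feature of at least 5 CPM. Over 6 aorta libraries the 5 features closest to it were Pak6 (r = 1.00), Fgf1 (0.999), P2rx1 (0.998), Dtx3 (0.998) and Tmem132a (0.998). Over 8 liver libraries they were Ncoa5 (0.987), Dnajb2 (0.974), Iars (0.970), Tmem167 (0.962) and Atpaf2 (0.958). With so few libraries high values are common: 1751 of 11093 features in aorta and 483 of 10164 in liver exceeded 0.7. Among other cytosolic chaperones, 12 of 24 in aorta and 8 of 22 in liver did so, and among endoplasmic reticulum chaperones 12 of 24 and 11 of 24. Of the subunits of the chaperonin TRiC and of prefoldin, it was 0 of 14 and 3 of 14, and of other mitochondrial chaperones and proteases 2 of 12 and 1 of 12. Stip1, which links Hsp70 to Hsp90, was at 0.951 in aorta and 0.902 in liver, and Hsf1, the main heat shock factor, at 0.947 in aorta and 0.708 in liver. Both were named after their values were seen.

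Cirbp, a cold-inducible RNA-binding protein, ran the other way. Its level was 68.3, 80.6 and 53.6 CPM in BT3xHuBL aorta and 54.4, 61.2 and 62.6 CPM in HuBL aorta, and in the liver 40.5, 38.9, 33.0 and 48.1 CPM in BT3xHuBL and 39.2, 38.4, 24.0 and 46.1 CPM in HuBL. It was lowest in the third library of BT3xHuBL aorta and of both liver groups, and its r with the inducible members was -0.976 in aorta and -0.921 in liver. Rbm3, the other cold-inducible gene listed, was at -0.989 in aorta but 0.566 in liver, and its feature overlaps another gene. In the aorta, smooth muscle markers moved with the members. Their sum over 8 genes was 14800, 12100 and 16500 CPM in the 3 BT3xHuBL aortas and 15700, 13200 and 13400 CPM in the HuBL aortas, and 6 of 8 had an r over 0.7. Brown adipocyte markers, at 114, 40.7 and 232 CPM in BT3xHuBL aorta and 149, 166 and 119 CPM in HuBL aorta, had the same order within BT3xHuBL but not within HuBL. Other cell types in aorta leaned the other way or were split. Of 11 macrophage genes, 2 had an r above 0 (median r -0.417), and of 8 endothelial genes 1 did (median r -0.277). Of 9 white adipocyte genes, 6 had an r above 0 (median r 0.0336). Clock genes were mixed. Arntl had an r of 0.976 in aorta and 0.166 in liver, and Dbp of -0.839 in aorta and -0.00698 in liver. Over 16 clock genes in aorta, the median r was -0.373 and 3 exceeded 0.7. Arntl and Dbp were named after their values were seen. The part of any of these cell types or of the clock genes in the members' levels was not tested.

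Beyond the 10 members, no other listed chaperone gene passed the edgeR test between genotypes in either tissue. Of 24 other cytosolic chaperones and cochaperones, 20 were above 0 and 4 below in BT3xHuBL against HuBL aorta (median 0.06), and of 23 tested in liver 7 were above and 16 below (median -0.18). At an unadjusted p under 0.05 there were 2 of them in aorta, both higher, and in liver 1 higher and 3 lower. Of all features, 4.08% in aorta and 11.1% in liver had such a p. Above 0 were 48.5% of all features in aorta and 51.8% in liver. Dnajb4, an Hsp40 cochaperone, averaged 187 ± 11.1 CPM in BT3xHuBL aorta and 150 ± 26.9 CPM in HuBL aorta (SD, n = 3 each), with a log2 fold change of 0.31 (SE 0.13) and an edgeR adjusted p of 1.0. In liver, Ptges3, a cochaperone of Hsp90, averaged 71.9 ± 4.97 CPM in BT3xHuBL and 93.4 ± 12.6 CPM in HuBL (SD, n = 4 each), at -0.37 (SE 0.10, edgeR adjusted p = 0.286) and with no overlap. Hsp90ab1, the constitutive Hsp90, averaged 1320 ± 155 CPM in BT3xHuBL liver and 1720 ± 263 CPM in HuBL liver (SD, n = 4 each), at -0.38 (SE 0.13, edgeR adjusted p = 0.36). Among 5 small heat shock proteins tested in aorta, 3 were above 0 and 2 below, and Hspb7 had the smallest p at 0.34 (SE 0.11, edgeR adjusted p = 0.915). All 3 tested in liver were above 0.

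Heat shock factors and their regulators were split 2 above and 2 below 0 in each tissue, and Hsbp1, an inhibitor of heat shock factor trimers, was at -0.27 (SE 0.09, edgeR adjusted p = 0.327) in liver with no overlap. Of 12 mitochondrial chaperones and proteases, 6 were above and 6 below 0 in aorta, and 8 above and 4 below in liver. Of 24 endoplasmic reticulum chaperones and unfolded protein response genes, 10 were above and 14 below in aorta (median -0.03), and 13 above and 11 below in liver (median 0.00). In liver Ern1, which encodes the stress sensor IRE1, averaged 46.4 ± 6.34 CPM in BT3xHuBL and 29.5 ± 7.55 CPM in HuBL (SD, n = 4 each), at 0.66 (SE 0.18, edgeR adjusted p = 0.282) and with no overlap. Over all liver features, 2.88% had no overlap in the higher direction and 3.65% in the lower direction. Of 14 TRiC and prefoldin genes, 7 were above and 7 below in aorta, and 3 above and 11 below in liver (median -0.11). Plasma cell and immunoglobulin markers were at 362 to 520 CPM in BT3xHuBL aorta and 679 to 1060 CPM in HuBL aorta, summed over 6 genes, and their part in these comparisons was not tested. The listed heavy chain constant genes Ighm, Igha, Ighg2b and Ighg2c were not matched by name and are left out of this sum. Heavy chain features are present under other spellings.

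Between tissues, the other lists differed by compartment, and the genes named here were chosen for their size of difference after the values were seen. Over all features, edgeR called 40.9% higher and 39.9% lower in aorta in BT3xHuBL, and 41.8% higher and 39.1% lower in HuBL. Of 24 endoplasmic reticulum genes, it called 1 higher and 22 lower in aorta than in liver in BT3xHuBL (median -1.18). In HuBL it called 0 higher and 19 lower of these genes (median -1.11). On library totals it called 1 higher and 13 lower in BT3xHuBL and 4 higher and 11 lower in HuBL, with both medians below 0. Pdia4, a disulfide isomerase, averaged 153 ± 27.1 CPM in BT3xHuBL aorta (SD, n = 3) and 555 ± 61.5 CPM in BT3xHuBL liver (SD, n = 4), at -1.86 (SE 0.16). Of 12 mitochondrial genes, 2 were called higher and 10 lower in each genotype, and Clpx, the unfoldase of a matrix protease, was at -3.85 (SE 0.11) in BT3xHuBL and -3.98 (SE 0.11) in HuBL. The mitochondrial Hsp90, Trap1, was at -2.02 (SE 0.09) in BT3xHuBL and -1.95 (SE 0.09) in HuBL. The features of Pdia4 and Trap1, like that of Rbm3, are marked as overlapping another gene. These 2 lists thus went the way of Hspa5 and Hspd1. The other cytosolic list was divided, with 8 called higher and 7 lower of 23 in BT3xHuBL and 8 higher and 10 lower in HuBL, a balance that on library totals became 15 higher and 1 lower, and 13 higher and 2 lower. Among the small heat shock proteins, Cryab, the alpha-B crystallin of muscle, was at 3.95 (SE 0.18) in BT3xHuBL and 4.23 (SE 0.18) in HuBL, like Hspb1 higher in aorta, whereas Hspb8 was at -1.66 (SE 0.19) and -1.63 (SE 0.19). Hsf2, a heat shock factor, was at -1.80 (SE 0.10) in BT3xHuBL and -2.06 (SE 0.10) in HuBL.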

How the data were processed

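The authors deposited raw counts per feature, 1 table per tissue, from Lexogen QuantSeq V2 libraries of RNeasy-isolated RNA, per the labels' protocols. That assay reads transcripts near their 3′ ends, so counts carry no length correction. HTSeq 2.0 and GRCm38 are named in the submitters' processing notes, whereas aligner, strand setting and annotation were not stated in the sources used here. The tables' header line is shifted against their first columns, and count columns were matched by library name. Matched by name to GENCODE M21, 893 of 19272 features on the same chromosome started within 1 kb, so positions come from GENCODE M21 (GRCm38), and promoters from RefSeq (GRCm38.p6).

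For the genotype comparisons, edgeR 4.0.16 (R 4.3.3) was run on 1 tissue at a time (filterByExpr, TMM, robust quasi-likelihood F-test, two-sided, Benjamini-Hochberg over all features, threshold 0.05). The interaction and the tissue contrasts came from 1 fit of 14 libraries over 11951 features kept in both tissues. That fit treats aorta and liver libraries as independent. The labels do not say whether an aorta and a liver of the same number share an animal, and this was not tested. CPM use TMM-scaled library sizes over the features kept in both tissues, and log2 fold changes a prior count of 0.125. The edgeR test gives no standard error. Each SE is therefore the absolute log2 fold change divided by the square root of the F statistic. Centred levels in the text use log2 CPM with a prior count of 2, scaled within each tissue. The plot of deviations from the group mean instead uses plain log2 CPM on the scale of all libraries, without a prior count. SciPy 1.17.1 ran the exact permutation tests, and matplotlib 3.10.9 drew the plots. The alternatives tried were DESeq2 1.42.0, limma-voom (limma 3.58.1), RLE and upper quartile scaling, a minimum mean of 5 CPM or no filter, no robust weights, a replicate block, both tissues in 1 fit and each library left out. Added after the data were seen were library totals and leaving out the third liver of both genotypes.

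Simulated counts with 200 changed features tested the scripts. EdgeR recovered 47.8%, 69.6% and 84.4% of features changed 1.5-, 2- and 3-fold in the aorta design, 36.4%, 66.2% and 95.7% in the liver design and 11.3%, 55.7% and 89.7% in the interaction, at 7 false of 141, 7 of 140 and 9 of 116 calls. The members and lists were chosen with earlier results of these data known. From each other list, the text may name up to 3 genes of smallest p per tissue in the genotype comparison, and the 5 features most like the inducible members, leaving out predicted gene models.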

Additional observations from a re-analysis of the deposited data

Results flagged for a closer look

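In 20 tests of a member within a liver group of 4, 5 values stood apart by the gap to their nearest neighbour, where chance gives about 1 in 20, and they came from 2 libraries. In BT3xHuBL liver it was the third library each time, with Hspe1 at 47.4 CPM, Hspd1 at 352 CPM, Hspa1b at 33.3 CPM and Hsph1 at 158 CPM, each the highest of its group. In HuBL liver, also in the third library, Hspa5 was at 3080 CPM, the highest of its group. The groups of 3 aortas were too small for this test. The members share their libraries, so the flags are not independent, and their cause was not tested.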

How the results depend on the processing

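The call of 0 members by genotype in aorta, in liver and in their difference held under every alternative run. The count of all features called moved more: in aorta, from 4, it was 68 with DESeq2, 0 with limma-voom, 9 with no filter, 14 with the replicate block, 7 with both tissues in 1 fit and 0 to 27 with 1 library left out. In liver, from 0, it was 133 with DESeq2, 10 with the block, 1 without the third liver of both genotypes, 5 with both tissues in 1 fit and 0 to 5 with 1 library left out. In the difference, from 0, it was 42 with DESeq2, 3 with the block and 0 to 4 with 1 library left out. Replicate numbers share no stated source: same-numbered libraries correlated at -0.0575, 0.135 and 0.00722 in aorta and at -0.0423, 0.159, 0.102 and 0.0686 in liver, not all their best match, so the block was not taken as a pairing. Aorta over liver, 1 library left out gave 9323 to 9815 called features in BT3xHuBL and 9346 to 9817 in HuBL. The members' median there was 0.912 in BT3xHuBL and 0.541 in HuBL at a mean of at least 5 CPM, which drops Hspa1a, and 2.19 and 1.61 on library totals. With 1 library left out, the median ranged from 1.22 to 1.82 in BT3xHuBL and 0.81 to 1.31 in HuBL, and by genotype from -0.319 to 0.19 in aorta, -0.663 to -0.0898 in liver and 0.122 to 0.672 in the difference, with 8 members called in every such fit in BT3xHuBL and 6 to 8 in HuBL. Hspe1 in HuBL lost its call with RLE (0.341), DESeq2 (0.341), no filter (0.274) and the block (0.362), and Hspa1b in HuBL gained one with upper quartile (1.61), limma-voom (2.08), the 5 CPM filter (1.75), no robust weights (1.59), the block (1.60), totals (2.21), or without the third or the fourth BT3xHuBL liver (1.58). On totals Dnajb1 in BT3xHuBL was called at 0.815.

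Signs that turned belonged to uncalled values. In aorta the members' median by genotype was -0.0589 with limma-voom and -0.0502 with the block, with 7 of 10 below 0. In aorta, limma-voom and the block gave -0.0533 and -0.0283 for Hspa1a, -0.0645 and -0.0725 for Hsph1, and -0.00655 and -0.00913 for Hspa5. In liver, Hspb6 was at -0.0618 without the third liver of both genotypes and Rbm3 at 0.0287 on totals. Hspa5 in the difference was at 0.019 with RLE and DESeq2, and Dnajb1 between tissues in HuBL at 0.053 with limma-voom, 0.051 at 5 CPM and 0.523 on totals. With 1 library left out, aorta ranges by genotype were -0.354 to 0.00157 (Hspe1), -0.222 to 0.0466 (Hspd1), -0.385 to 0.192 (Hspb1), -0.357 to 0.379 (Hspa1a), -0.675 to 0.188 (Hspa1b), -0.0531 to 0.188 (Hspa8), -0.0393 to 0.218 (Hsp90aa1), -0.475 to 0.359 (Hsph1), -0.284 to 0.307 (Dnajb1), -0.167 to 0.179 (Hspa5), -0.371 to 0.0162 (Cryab), -0.135 to 0.00806 (Hsbp1), -0.218 to 0.307 (Rbm3) and -0.0759 to 0.514 (Ppargc1a). Liver ranges were -0.682 to 0.3 (Hsph1), -0.456 to 0.0786 (Dnajb1), -0.0947 to 0.362 (Hspa5), -0.032 to 0.178 (Hspb6), -0.0286 to 0.25 (Cirbp) and -0.143 to 0.0915 (Rbm3). In the difference they were -0.0625 to 0.199 (Hspd1), -0.0938 to 1.78 (Hspa1b), -0.211 to 0.761 (Hsph1), -0.0497 to 0.565 (Dnajb1) and -0.328 to 0.155 (Hspa5). Between tissues, Hsph1 ran from -0.0387 to 0.903 in BT3xHuBL and -0.128 to 0.698 in HuBL, and Dnajb1 from -0.148 to 0.435 and -0.348 to 0.178. The causes were not tested. Liver libraries are the shallower ones, and counts of 2 to 39 for Hspa1a limit its precision there.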
